A study of Mus musculus with 3 samples.

Results

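Genes of the canonical Wnt pathway, 10 in number, were followed through the RNA-seq libraries of c2c12 myoblasts grown on different substrates: the co-receptors Lrp5 and Lrp6, the destruction complex genes Axin1, Axin2, Apc and Gsk3b, the ubiquitin ligases Znrf3 and Rnf43, and the transcription factors Tcf7l2 and Lef1. They were taken by gene symbol, and all 10 were found among the 23238 symbols of the count tables. c2c12 is an immortalized line of mouse myoblasts, which fuse into myotubes when the serum is changed. The cells were grown in medium with 10% fetal bovine serum before induction. They were then kept for 2 days in myogenic induction medium with 2% horse serum on tissue culture plastic (TCP), on a hydrogel of methacrylated gelatin (GelMA, 15% w/v), or on the same gelatin mixed with 1% w/v poly(sodium 4-styrenesulfonate), a sulfonated polymer that mimics heparin (GelMA-PSS). Each substrate has 1 library, with 119799095 counts on TCP, 87071144 on GelMA and 192171443 on GelMA-PSS. Differences between substrates therefore cannot be set against a spread between replicates, and p-values were not calculated. The intervals given are 95% intervals that cover counting error only, and the levels on both control substrates are set beside that on GelMA-PSS for each of the 10 genes.

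In the canonical pathway a Wnt ligand binds a Frizzled receptor together with LRP5 or LRP6. Without the ligand, a complex built on AXIN and APC lets the kinases CK1 and GSK3 phosphorylate β-catenin, which is then degraded. With it, β-catenin accumulates, enters the nucleus and binds TCF/LEF factors at target genes, among them Axin2 and Znrf3, whose products feed back to dampen the signal. In skeletal muscle the pathway is known for its part in the commitment and differentiation of myogenic cells.

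In GelMA-PSS, 8 of the 9 expressed genes had the lowest level of the 3 libraries, as had 39.3% of all expressed genes, and Lrp5 was the exception. After a correction for transcript length and GC content, described further on, 7 of the 9 did, without Axin1. The corrected ratios of Axin1 were 0.01 against GelMA and -0.01 against TCP, or -0.003 and -0.02 with the longest transcripts of all genes. Levels are given as CPM, the counts of a gene relative to the total of its library with TMM scaling. A gene counted as expressed if its CPM reached 1 in any library, which Rnf43 did not. The genes with the largest differences were Apc, the scaffold of the destruction complex, Axin2, the feedback scaffold, and Tcf7l2, a TCF factor, each at less than 0.5 of its level in either control by the plain ratio of CPM. That ranking does not take transcript length into account. After the correction, Gsk3b, Tcf7l2 and Axin2 were lowest relative to the mean of the controls (log2 ratios of CPM + 1 of -1.22, -0.86 and -0.73), while Apc had -0.40. This change of scale, which understates genes with a low CPM such as Axin2, also enters the order. On the CPM + 1 scale Axin2 had -0.93 before the correction, while its plain log2 ratios were -1.21 against GelMA and -1.79 against TCP. The place of Gsk3b holds only with its transcript of 1750 bases. With the longest transcripts (8303 bases for Gsk3b), Tcf7l2 (-0.89) and Axin2 (-0.75) were lowest, while Gsk3b had -0.40 and Apc -0.41. Axin1, the constitutive scaffold, was nearly the same on the 3 substrates. GelMA and TCP differed little for 6 of the 9 genes, with log2 ratios within 0.2 (5 of the 9 after the correction, without Apc), as was the case for 60.6% of the 13169 expressed genes of the libraries. The plot of the level of each gene shows these values.

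**Figure D1:**
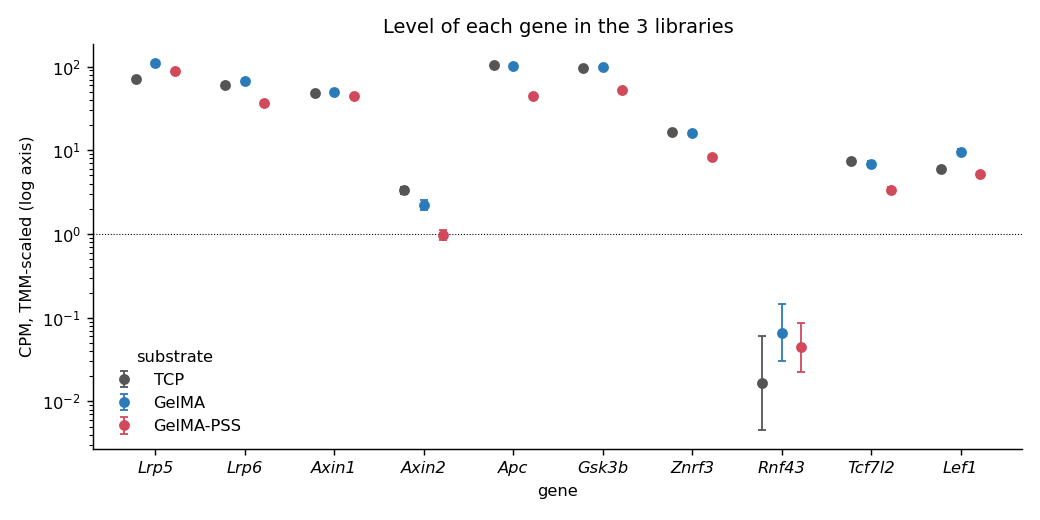
The TMM-scaled CPM of the 10 genes (log axis) in the TCP, GelMA and GelMA-PSS libraries, 1 point per library, with bars for the 95% Wilson interval of the count and a dotted line at the limit of CPM 1. The GelMA-PSS point is the lowest of the 3 for 8 genes, while Lrp5 lies between its controls and Rnf43 is far below the limit in every library.

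LRP5 and LRP6 are related single-pass receptors. Lrp5 (GRCm38 chr19:3584828-3686564, minus strand) had a CPM of 70.5 on TCP, 110.1 on GelMA and 88.4 on GelMA-PSS. Before the correction, GelMA was the highest and TCP the lowest, so that GelMA-PSS lay between the controls. The ratio of GelMA to TCP was then 1.56 (1.52 to 1.61), larger than either ratio of GelMA-PSS to a control. Those were 0.803 (0.783 to 0.823) to GelMA and 1.25 (1.22 to 1.29) to TCP. The correction turned this ranking and placed GelMA-PSS above both controls. On the corrected log2 scale, GelMA-PSS exceeded TCP by 0.63, GelMA exceeded TCP by 0.58, and GelMA-PSS exceeded GelMA by 0.09. Lrp6 (chr6:134446476-134566965, minus strand) had a CPM of 59.8 on TCP, 67.0 on GelMA and 36.3 on GelMA-PSS. The controls were close to each other and GelMA-PSS was below both, 1.85-fold (1.78 to 1.91) below GelMA and 1.65-fold (1.59 to 1.70) below TCP. On the log2 scale these differences were -0.87 and -0.71, and -0.17 and -0.22 after the correction.

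The co-receptors therefore stood in a different proportion in each library. The ratio of Lrp5 counts to Lrp6 counts, which no scaling of the libraries can alter, was 1.18 (1.14 to 1.22) on TCP, 1.64 (1.59 to 1.70) on GelMA and 2.43 (2.37 to 2.51) on GelMA-PSS. It was lowest on TCP and highest on GelMA-PSS, and the 3 intervals did not overlap. The transcripts of this pair differ in length, with 5161 bases for Lrp5 and 9368 for Lrp6, which bears on this ratio because the ratios of GelMA-PSS followed transcript length, as described below for all genes.

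AXIN1 and AXIN2 are the scaffolds of the destruction complex, and Axin2 is also a widely used target gene of the pathway. Axin1 (chr17:26138688-26195811, plus strand) had a CPM of 49.0 on TCP, 49.2 on GelMA and 44.1 on GelMA-PSS. Its GelMA-PSS level was 1.12-fold (1.08 to 1.16) below GelMA and 1.11-fold (1.08 to 1.15) below TCP, the smallest differences of the 8 genes that were lower than in both controls. Axin2 (chr11:108920349-108950783, plus strand) was much less abundant, with 408 counts on TCP, 204 on GelMA and 176 on GelMA-PSS, that is a CPM of 3.35, 2.24 and 0.972. TCP was the highest and GelMA-PSS the lowest, and GelMA lay between them. By the plain ratio of CPM, Axin2 on GelMA-PSS was 2.31-fold (1.88 to 2.84) below GelMA and 3.45-fold (2.88 to 4.14) below TCP, while GelMA itself was 1.49-fold (1.26 to 1.77) below TCP. The order among the libraries was thus graded for Axin2 and not for Axin1. The count ratio of Axin2 to Axin1 gave the same order without any scaling, with 0.0683 (0.0617 to 0.0756) on TCP, 0.0456 (0.0394 to 0.0525) on GelMA and 0.0221 (0.0189 to 0.0256) on GelMA-PSS. The transcripts of these paralogs have similar lengths, 4260 and 3777 bases.

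The sequence before the start of Axin2 is shown because the gene is the classical feedback target among the 10. The 250 bases before its start in RefSeq (GRCm38.p6, chr11:108920099-108920348, plus strand) hold 69.2% G and C. The core that TCF/LEF factors recognise was searched as the letters CTTTGAA, as its form CTTTGAT, as the form CTTTGTA and as the form CTTTGTT on both strands, and none is in this window, which says nothing of sites elsewhere. One or more was found in the same window of 4874 of 32851 RefSeq promoters, or 14.8%.
Axin2: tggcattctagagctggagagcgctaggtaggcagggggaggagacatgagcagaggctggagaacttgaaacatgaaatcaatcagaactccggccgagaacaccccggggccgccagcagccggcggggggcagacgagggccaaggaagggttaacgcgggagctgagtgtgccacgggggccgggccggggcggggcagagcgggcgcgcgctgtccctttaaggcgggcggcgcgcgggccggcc

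Apc and Gsk3b encode the second scaffold of the complex and its kinase. Apc, on chromosome 18, had a CPM of 103.7 on TCP, 100.6 on GelMA and 44.9 on GelMA-PSS. The controls were nearly equal, and GelMA-PSS was 2.24-fold (2.18 to 2.31) below GelMA and 2.31-fold (2.25 to 2.38) below TCP. Corrected for transcript length, which is 12811 bases, and GC content, its log2 ratios were -0.23 against GelMA and -0.56 against TCP, in place of -1.15 and -1.19, and that of GelMA against TCP went from -0.04 to -0.24. Gsk3b (chr16:38089001-38246084, plus strand) had a CPM of 97.1 on TCP, 99.5 on GelMA and 52.3 on GelMA-PSS. Again only GelMA-PSS stood apart, 1.90-fold (1.85 to 1.96) below GelMA and 1.86-fold (1.81 to 1.91) below TCP.

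The closest relatives of these genes had other values. Gsk3a, the paralog of Gsk3b, had a CPM of 97.5 on TCP, 88.7 on GelMA and 87.0 on GelMA-PSS. The count ratio of Gsk3b to Gsk3a was 0.996 (0.971 to 1.02) on TCP, 1.12 (1.09 to 1.16) on GelMA and 0.602 (0.586 to 0.617) on GelMA-PSS, so the kinase genes had about equal counts on the controls only. The size of this contrast depends on length, since Gsk3a has 2260 bases and Gsk3b 1750 or 8303, and with the longer transcript the corrected ratio of Gsk3b against the mean of the controls was -0.40, against -0.12 for Gsk3a. Apc2, the paralog of Apc, had a CPM of 34.5 on TCP, 16.3 on GelMA and 105.5 on GelMA-PSS. It was highest where Apc was lowest, and the count ratio of Apc to Apc2 was 3.01 (2.90 to 3.11) on TCP, 6.18 (5.85 to 6.53) on GelMA and 0.426 (0.415 to 0.437) on GelMA-PSS. Summed over both genes the CPM was 138.2 on TCP, 116.9 on GelMA and 150.3 on GelMA-PSS. The neighbours of Apc2 on chromosome 10, looked at after its values were seen, were also higher in GelMA-PSS. Of the 5 nearest expressed genes on each side, 9 of 10 were above both controls, where 45.3% of all genes were. Their median log2 ratio to the mean of the controls was 0.98, or 0.67 when corrected for length and GC content, from 0.05 for Adamtsl5 to 2.32 for Plk5.

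**Figure D2:**
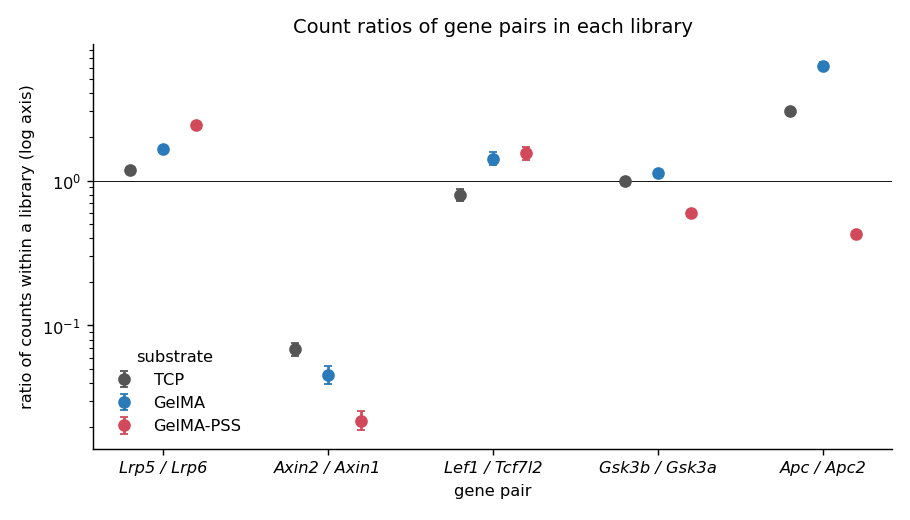
The ratio of counts of 5 pairs of related genes within each library (log axis), with bars for the 95% exact interval. The GelMA-PSS point is the highest for Lrp5 over Lrp6 and the lowest for Axin2 over Axin1, Gsk3b over Gsk3a and Apc over Apc2, and for Lef1 over Tcf7l2 the hydrogels lie together above TCP.

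ZNRF3 and RNF43 are membrane ligases that remove Frizzled receptors from the cell surface. Znrf3 (chr11:5276324-5444847, minus strand) had a CPM of 16.5 on TCP, 16.2 on GelMA and 8.25 on GelMA-PSS. The controls were within counting error of each other, and GelMA-PSS was 1.96-fold (1.82 to 2.11) below GelMA and 2.00-fold (1.87 to 2.14) below TCP. Rnf43 (chr11:87662722-87735539, plus strand) was hardly detected, with 2 counts on TCP, 6 on GelMA and 8 on GelMA-PSS. The ratio of GelMA to TCP was 4.02 with an interval from 0.719 to 40.7, and that of GelMA-PSS to GelMA 0.669, from 0.204 to 2.34, so no difference in Rnf43 was detectable at this depth. Lgr4, a receptor for R-spondins that acts on these ligases, had a CPM of 24.7 on TCP, 20.4 on GelMA and 13.8 on GelMA-PSS.

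TCF7L2 and LEF1 bind DNA and carry β-catenin to target genes. Tcf7l2 (chr19:55741820-55933654, plus strand) had a CPM of 7.42 on TCP, 6.82 on GelMA and 3.34 on GelMA-PSS. The interval of GelMA to TCP held 1, and GelMA-PSS was 2.04-fold (1.82 to 2.29) below GelMA and 2.22-fold (2.00 to 2.47) below TCP. Lef1 (chr3:131110471-131224356, plus strand) had a CPM of 5.91 on TCP, 9.67 on GelMA and 5.15 on GelMA-PSS. Here GelMA stood apart and the other libraries were close, so that GelMA-PSS was 1.88-fold (1.71 to 2.06) below GelMA but only 1.15-fold (1.04 to 1.27) below TCP. GelMA was 1.64-fold (1.48 to 1.81) above TCP. If both reads of each pair were counted, the interval of GelMA-PSS against TCP would widen to between 0.998-fold and 1.32-fold lower and no longer leave out equality.

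The count ratio of Lef1 to Tcf7l2 was 0.797 (0.722 to 0.880) on TCP, 1.42 (1.28 to 1.57) on GelMA and 1.54 (1.39 to 1.71) on GelMA-PSS. Tcf7l2 had more counts than Lef1 on TCP and fewer on both hydrogels, whose intervals overlapped. These transcripts are of similar length, 3482 bases for Lef1 and 3715 for Tcf7l2. The other TCF genes were more abundant. Tcf7 had a CPM of 32.9 on TCP, 28.8 on GelMA and 26.4 on GelMA-PSS, and Tcf7l1 had 31.2, 34.9 and 23.1.

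RefSeq gives both factor genes starts within the gene body besides the first one, and 2 of these internal windows are shown because they are the only ones, among 10 starts of 5 genes (Axin2, Gsk3b, Rnf43, Tcf7l2 and Lef1), that hold one of the motif letters searched. Among all 32851 RefSeq promoters 14.8% hold one or more in the same window, so 2 of 10 starts is near the share over all. The capitals mark the match. In Tcf7l2 (GRCm38.p6, chr19:55895071-55895320, plus strand) it is CTTTGTT, whose first base lies 14 bases before the start. In Lef1 (chr3:131156044-131156293, plus strand) it is CTTTGTA on the minus strand, read here as TACAAAG and beginning 147 bases before the start. Neither window overlaps an annotated exon. The counts are given per gene and do not separate these starts from the others.
Tcf7l2 internal start: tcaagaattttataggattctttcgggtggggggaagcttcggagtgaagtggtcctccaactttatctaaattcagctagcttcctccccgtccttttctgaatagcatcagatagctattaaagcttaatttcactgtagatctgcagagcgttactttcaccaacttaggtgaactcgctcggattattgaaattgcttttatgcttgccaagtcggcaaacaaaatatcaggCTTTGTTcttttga
Lef1 internal start: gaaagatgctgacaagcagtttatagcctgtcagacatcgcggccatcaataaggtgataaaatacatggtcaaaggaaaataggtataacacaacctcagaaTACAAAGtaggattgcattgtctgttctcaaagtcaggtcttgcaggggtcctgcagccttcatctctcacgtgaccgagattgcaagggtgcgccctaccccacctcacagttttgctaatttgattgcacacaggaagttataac

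Between genes, levels can be compared only per length of transcript. Per kilobase of the transcript with the longest coding sequence, the order on TCP was Gsk3b with 55.5 CPM per kilobase, Lrp5 with 13.7, Axin1 with 13.0, Apc with 8.09, Lrp6 with 6.39, Znrf3 with 2.61, Tcf7l2 with 2.00, Lef1 with 1.70, Axin2 with 0.787 and Rnf43 last. The place of Gsk3b depends on its transcript, since the one with the longest coding sequence has 1750 bases and the longest 8303, with which it had 11.7 CPM per kilobase and came after Lrp5 and Axin1. On GelMA the order differed in the place of Lef1, which with 2.78 stood above Tcf7l2 and Znrf3 (2.56), and the intervals of Lef1 and Znrf3 overlapped. On GelMA-PSS, Lrp6 with 3.88 CPM per kilobase stood above Apc with 3.50, and Lef1 with 1.48 above Znrf3 with 1.31 and Tcf7l2 with 0.899. No other neighbours in the order of a library had overlapping intervals.

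For a common scale with all genes, log2 ratios of CPM + 1 were taken, which understate the differences of genes with a low CPM such as Axin2. Against GelMA, 1 of the 9 genes, Apc (-1.15), was more than 2-fold lower in GelMA-PSS, and 0 were more than 2-fold higher, where 2.33% and 1.77% of all expressed genes were. Against TCP, Axin2 (-1.14) and Apc (-1.19) were more than 2-fold lower and 0 of the 9 higher, with 3.13% and 3.72% of all genes. Between GelMA and TCP 0 of the 9 passed 2-fold either way, with 0.706% of all genes higher and 0.296% lower on GelMA. Past 2-fold against both controls, Apc was the only one that was lower and 0 were higher, where 1.16% and 1.37% of all genes were. After the correction Apc lost this call and Gsk3b was the only one of the 9 past 2-fold lower, or 0 of the 9 with the longest transcripts. Of all genes past 2-fold against both controls 54.1% were higher with TMM factors and 27.1% with total counts only. Without regard to size, 0 of 9 were above both controls, against 45.3% of all genes. At 1.5-fold, 6 of 9 were lower than in both controls, namely Lrp6, Axin2, Apc, Gsk3b, Znrf3 and Tcf7l2, against 7.18% of all genes. After the correction 2 of 9, Gsk3b and Tcf7l2, were, against 3.76%. With its longest transcript Gsk3b fell short of 1.5-fold, with -0.33 against GelMA and -0.46 against TCP.

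The median log2 ratio of the 9 genes was -0.85 for GelMA-PSS against GelMA and -0.88 against TCP, while that of GelMA against TCP was 0.01. The medians over all expressed genes were 0.03, 0.04 and -0.01. The comparisons of GelMA-PSS with its 2 controls share the GelMA-PSS library, and the values of 1 library against the controls are therefore not independent of each other. Of the single ratios against GelMA, that of Apc, given above, was the lowest, and that of Lrp6 was -0.87, of Gsk3b -0.91, of Znrf3 -0.89, of Tcf7l2 -0.85 and of Lef1 -0.80. That of Axin2 was -0.72, and -1.21 without a pseudocount. Those of Lrp5 (-0.31) and Axin1 (-0.16) were closer to 0.

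The log2 ratios of GelMA-PSS followed transcript length in these libraries, and the transcripts of the 9 genes had a median of 4260 bases against 2913 for all expressed genes with a known length. The transcript used for Gsk3b, with 1750 bases, was the only one of the 9 below that median. Genes were divided by length into 10 bins of nearly equal size. In the bin with the longest transcripts, with a median of 7803 bases, the median log2 ratio to the mean of the controls was -0.54. In the bin with the shortest, with a median of 821 bases, it was 0.55. Apc, with 12811 bases, and Lrp6 have the longest transcripts among the 10. Whether this dependence arose in the cells or in the libraries was not tested.

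**Figure D3:**
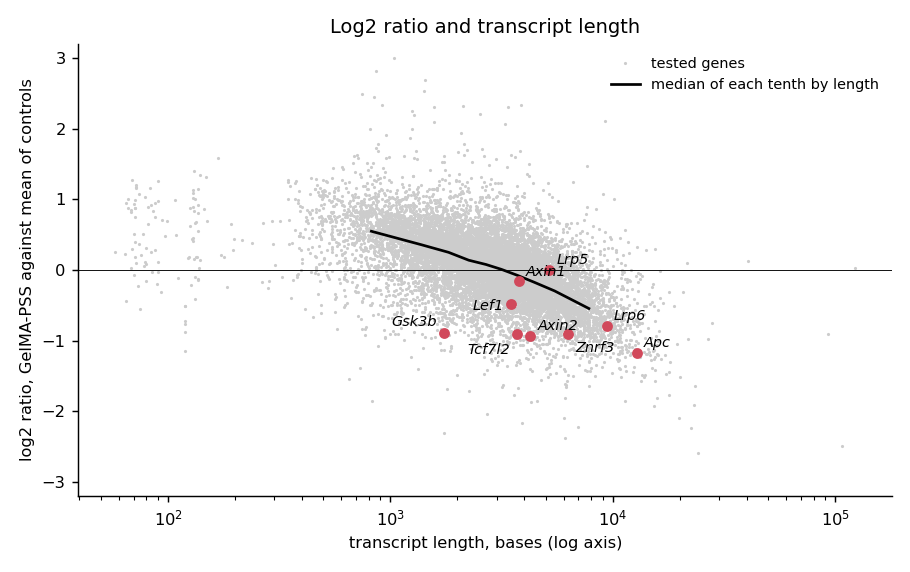
The log2 ratio (CPM + 1) of GelMA-PSS against the mean of the controls plotted against transcript length (log axis) for 13050 genes (grey), less 4 beyond the axis, with the median of each of 10 bins of genes by length (line) and 9 of the 10 genes named (red). Gsk3b (placed at 1750 bases, while its longest transcript has 8303), Tcf7l2, Axin2 and Znrf3 lie well below the line at their lengths, Lrp5 lies above it, and Lrp6 and Apc lie beyond its end.

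A correction for transcript length and GC content, which takes the local average of genes of like length and then of like GC content from each ratio, changed the genes unequally. Against the mean of the controls, the ratio of Tcf7l2 went from -0.90 to -0.86, that of Lef1 from -0.48 to -0.44 and that of Axin2 from -0.93 to -0.73. These genes, with transcripts of 3482 to 4260 bases, kept most of their difference. The ratio of Apc went from -1.17 to -0.40, that of Lrp6 from -0.79 to -0.20 and that of Znrf3 from -0.90 to -0.52. Apc thus lost its place as the lowest of the 9. That of Axin1 went from -0.15 to 0 when rounded, and it changed sign against GelMA, from -0.16 to 0.01. With the longest transcripts the ratio of Axin1 against GelMA kept its sign, at -0.003.

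Gsk3b depended on its transcript in the correction too. Its ratio of -0.90 became -1.22 with the transcript of 1750 bases and -0.40 with that of 8303. Lrp5 went from 0.00 to 0.36 against the mean of the controls and changed sign against GelMA, from -0.31 to 0.09. The ratio of GelMA to TCP hardly moved for Lrp5 (0.64 to 0.58) and Lef1 (0.63 to 0.63), but went from -0.04 to -0.24 for Apc and from 0.16 to 0.01 for Lrp6.

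After the correction, 7 of the 9 genes were below both controls, against 40.7% of the 13050 genes with a length. These were Lrp6, Axin2, Apc, Gsk3b, Znrf3, Tcf7l2 and Lef1. With the longest transcripts Axin1 was below both as well, by a small margin (-0.003 against GelMA and -0.02 against TCP). The corrected median of the 9 was -0.45 against GelMA and -0.56 against TCP, and -0.33 and -0.46 where the longest transcript of each gene was used. Lrp5, with 0.09 against GelMA and 0.63 against TCP, was then above both, against 40.9% of all genes. Axin2, with -0.96 against TCP after -1.14 before, ended just under 2-fold there on the scale of CPM + 1. Without a pseudocount its uncorrected ratio against TCP was -1.79, and the correction was not applied to such ratios. Past 2-fold against both controls Apc lost its call after the correction, with -0.23 against GelMA and -0.56 against TCP. Gsk3b, with -1.27 and -1.16, was the 1 gene of 9 that was lower past 2-fold, against 0.628% of all genes. With the longest transcripts 0 of the 9 were, against 0.544%.

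**Figure D4:**
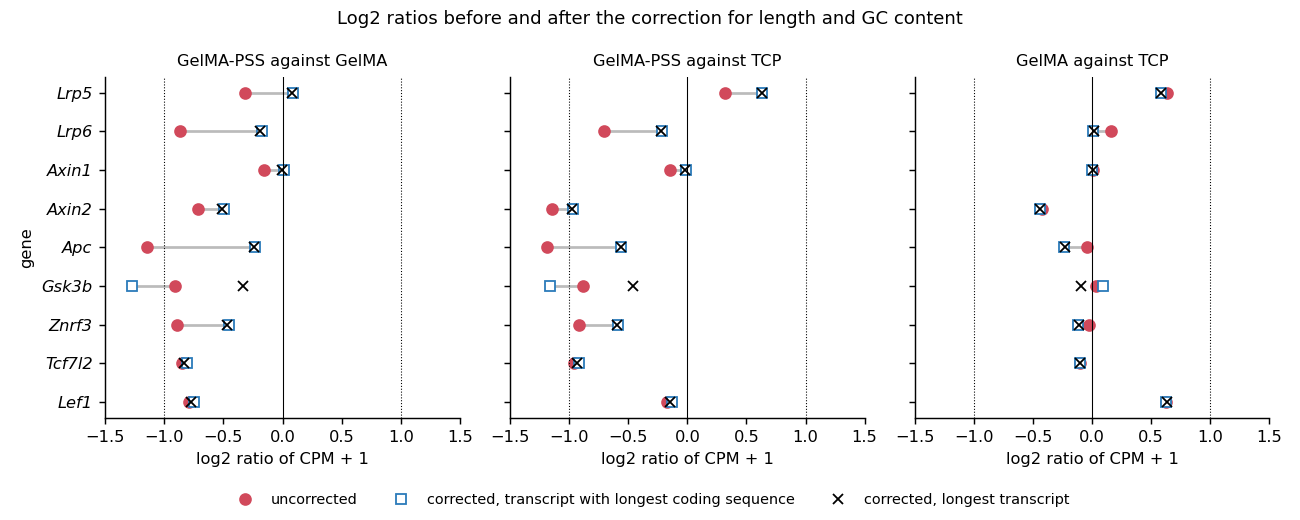
The log2 ratio of CPM + 1 for the 9 expressed genes in each of the 3 comparisons, before the correction for length and GC content (red), after it with the transcript of the longest coding sequence (square) and after it with the longest transcript (cross), with dotted lines at 2-fold. Tcf7l2 and Lef1 move little, Axin2 crosses the 2-fold line against TCP, Apc and Lrp6 move towards 0 in the comparisons of GelMA-PSS, and Gsk3b moves in opposite directions with its 2 transcripts.

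The rest of the pathway was followed through lists of genes by role, described by counts and medians. Of all expressed genes, 39.3% were below both controls and 45.3% above, or 40.7% and 40.9% after the correction, and the median over all genes was 0.03 against the mean of the controls and -0.01 for GelMA against TCP. Among the ligands and the genes for their secretion, 8 of 21 were expressed, 4 of them below both controls and 2 above. Wnt9a (-1.05 against the mean of the controls on the log2 scale) and Wnt10a (-0.94) were the lowest, both also lower on GelMA than on TCP (-0.42 and -0.63), and Wls (0.35), the carrier that brings Wnts to the surface, and Wnt10b (0.14) the highest. Wnt9a had a CPM of 42.4 on TCP, 31.5 on GelMA and 17.2 on GelMA-PSS. Wnt7a had no count in any library. The median of the list was -0.30 (-0.16 after the correction), and -0.22 for GelMA against TCP. Of the Frizzled and other receptors, 12 of 14 were expressed, 10 below both controls and 2 above, with a median of -0.55. After the correction the median was -0.25, with 8 below and 1 above. For GelMA against TCP it was -0.09. Fzd9 (-0.97) and Fzd5 (-0.94) were the lowest, with -0.86 and -0.30 for GelMA against TCP and -0.95 and -0.48 after the correction, and the chaperone gene of the co-receptors, Mesdc2 (0.29), and the receptor gene Ryk (0.05, and -0.07 after the correction) were the 2 above.

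Of the R-spondins and their receptors, the 3 expressed of 7, Lgr4 (-0.66), Lgr5 (-0.26) and Lgr6 (-0.78), were all below both controls. After the correction their ratios were -0.47, -0.09 and -0.34, and against TCP alone those of Lgr5 and Lgr6 were -0.01. Lgr6 was higher on GelMA than on TCP (0.80). The secreted antagonists were mixed, with 8 of 16 expressed, 5 below and 3 above both controls. Dkk2, which encodes a ligand of LRP5 and LRP6, had a CPM of 2.69 on TCP, 6.20 on GelMA and 10.8 on GelMA-PSS, a log2 ratio of 1.19, and its family member Dkk3 had a ratio of 0.48. Wif1 (-0.55) and Dkk1 (-0.40) were the lowest, both near the limit of expression. The median of the antagonists was -0.20 and turned to 0.27 after the correction, with 3 below and 5 above both controls. For GelMA against TCP it was 0.07.

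The partners of the destruction complex had a median near that of all genes, -0.06 before and -0.01 after the correction, and -0.06 for GelMA against TCP. Of 30 genes 27 were expressed, 12 below and 9 above both controls, or 10 and 11 after the correction. Ctnnb1, which encodes β-catenin, had a CPM of 466.0 on TCP, 521.4 on GelMA and 471.7 on GelMA-PSS, within the range of the controls. Csnk1a1, the gene of the priming kinase CK1α, had 241.2, 239.1 and 240.6, and Btrc, which encodes the ubiquitin ligase subunit that binds phosphorylated β-catenin, had a log2 ratio of -0.16. After the correction Csnk1a1 had -0.26 against GelMA and -0.20 against TCP, and Btrc had -0.19 against the mean of the controls. Apc2 (2.10, and -1.04 for GelMA against TCP) was the only one past 2-fold against both controls. Skp1a (0.42, and 0.09 after the correction, with its sign turned against TCP) was the next highest, and Dact1 (-0.97) and Dvl3 (-0.93), a Dishevelled gene, were the lowest, with -0.58 and -0.08 for GelMA against TCP. The tankyrases, which mark AXIN for degradation, had ratios of -0.72 for Tnks and -0.25 for Tnks2, and the APC partner Amer1 -0.50, which became -0.13, 0.06 and 0.03 after the correction. For Tnks2 and Amer1 the correction thus turned the sign.

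Of the partners of TCF factors, 21 of 22 were expressed, 15 below and 6 above both controls, with a median of -0.27 that became -0.19, with 14 below and 6 above, and 0.04 for GelMA against TCP. Crebbp, a histone acetyltransferase and coactivator, had a CPM of 30.9 on TCP, 38.8 on GelMA and 12.5 on GelMA-PSS. Its log2 ratio of -1.40 was the only one of this list past 2-fold lower against both controls, and it became -0.65 after the correction. The corepressor gene Tle4 (-1.08) followed, with -0.69 for GelMA against TCP. Cby1 (0.64), which encodes a β-catenin antagonist, and Ruvbl2 (0.48) were the highest before the correction, and had 0.27 and 0.44 after it.

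The list of 26 known target genes of the pathway holds 4 of the 10 genes (Axin2, Lef1, Znrf3 and Rnf43), and without them 18 of 22 were expressed, 12 below and 4 above both controls, where 39.3% and 45.3% of all genes were. Their median was -0.39, and -0.36 after the correction, with -0.10 for GelMA against TCP. Tnfrsf19 (-1.24) and Fst (-1.14), which encodes follistatin, were the lowest, with -0.80 and -1.07 for GelMA against TCP, and Fst had a CPM of 187.4 on TCP, 89.0 on GelMA and 58.0 on GelMA-PSS. Myf5, a myogenic factor of the committed myoblast, had a CPM of 13.9, 19.5 and 36.5, a log2 ratio of 1.10, and the cyclin gene Ccnd1 had 28.6, 58.1 and 74.4, a ratio of 0.85. None of the target genes passed 2-fold against both controls. Twist1 had no count in any library.

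**Figure D5:**
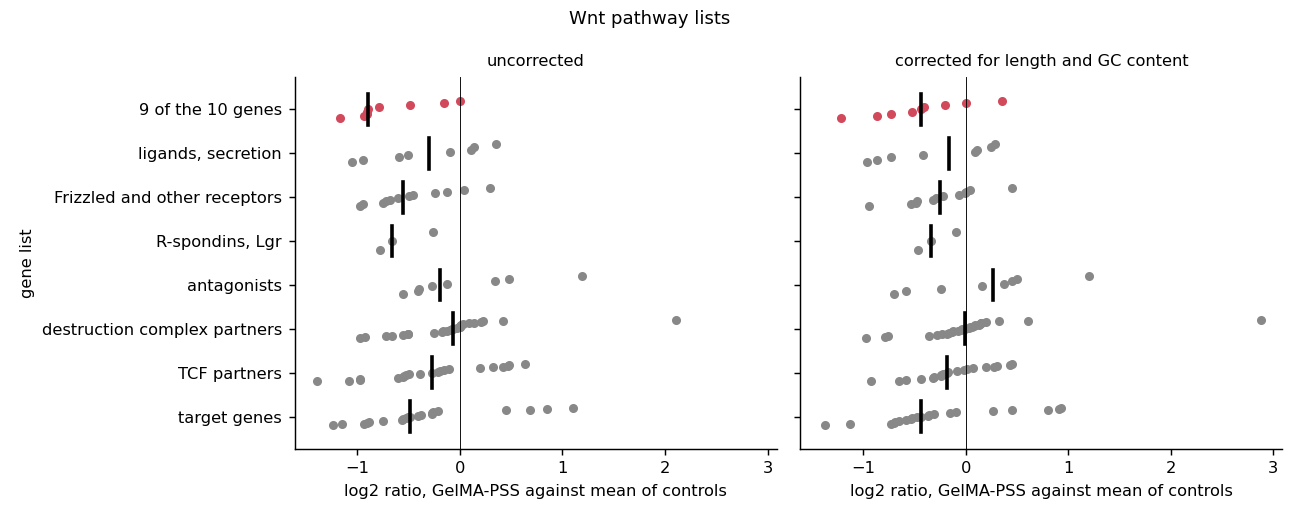
The log2 ratio of GelMA-PSS against the mean of the controls for the expressed genes of 8 lists, before (left) and after (right) the correction for transcript length and GC content, 1 point per gene with a bar at the median of each list. Points of the 9 genes lie mostly between -1.2 and 0 on the left and have a median of -0.90, which is -0.44 on the right, while Apc2 among the destruction complex partners stands apart at the upper end.

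Axin2 and Lrp5 were also described by the expressed genes nearest to them in pattern, by the Euclidean distance between the log2 ratios of GelMA and of GelMA-PSS against TCP over the 3 libraries. Nearest to Axin2 were Erbb2 (distance 0.031), Sh3bp4 (0.034) and Nrap (0.040), and 38 genes lay within 0.1. Nearest to Lrp5 were Adamts16 (0.013), Chtf18 (0.021) and Cdr2l (0.022), with 40 within 0.1. This nearness depends on the pseudocount. By plain log2 ratios of CPM, Erbb2 lay 0.679 from Axin2, Sh3bp4 0.675 and Nrap 0.638, and Adamts16 lay 0.270 from Lrp5, Chtf18 0.098 and Cdr2l 0.013. Over 3 libraries such a likeness is only a description.

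The labelled cell type was checked by its markers. All 7 myoblast markers and all 11 myotube markers were expressed. The summed CPM of the myoblast markers, of which Des was the most abundant, was 8265 on TCP, 7024 on GelMA and 7319 on GelMA-PSS, with 2 of 7 below and 3 above both controls in GelMA-PSS. That of the myotube markers, led by Myh3, was 32799.8 on TCP, 23569 on GelMA and 16690.0 on GelMA-PSS. Of these 9 of 11 were below both controls, and Myh3, Myh8, Myh1 and Ttn were past 2-fold. After the correction 10 of the 11 myotube markers were below both controls and 0 past 2-fold against both, where 40.7% and 0.628% of all genes were. The corrected ratios against GelMA were -0.61 for Myh3, -0.56 for Myh8, -0.62 for Myh1 and 0.24 for Ttn, whose sign turned. Against TCP they were -1.41, -1.88, -1.48 and -0.75, the first 3 of which were still past 2-fold. The order of their sums, highest on TCP and lowest on GelMA-PSS, was also that of 4 of the 9 Wnt genes (Axin2, Apc, Znrf3 and Tcf7l2) and of 21.2% of all expressed genes. For Axin2 the log2 ratio of GelMA to TCP was -0.42, whereas for Apc (-0.04), Znrf3 (-0.03) and Tcf7l2 (-0.11) it was within 0.2, but went to -0.24 for Apc after the correction, and turned for Apc and Znrf3 with TPM and for Znrf3 with total counts. The part that the share of myotubes had in the Wnt gene levels was not tested. In RNA from a whole culture, fewer cells of a type and less RNA per cell cannot be told apart.

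Markers of other cell types were summed in the same way, and their part in the Wnt gene levels was not tested. The summed CPM of 5 adipocyte markers was 0.0985 on TCP, 0.0770 on GelMA and 0.0662 on GelMA-PSS, led by Adipoq with Lep at 0 in every library. That of 4 endothelial markers, led by Tek, was 0.756, 0.682 and 0.905. That of 5 macrophage markers, led by Cd68, was 2.78, 2.51 and 1.99, with 0, 0 and 4 counts of Ptprc. That of 4 epithelial markers, led by Cdh1, was 14.2, 10.8 and 8.23, with Krt18 at 0 counts on TCP and on GelMA-PSS. Of 5 osteoblast markers, led by Runx2, Ibsp had no count, and the sum was 28.6, 31.0 and 23.0. That of 7 fibroblast markers, led by Col3a1, was 2349.6, 3757 and 3184, with 2 counts of Thy1 on GelMA-PSS and 0 on the controls.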

How the data were processed

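Raw counts per gene symbol, without normalization, were deposited by the authors for each of the 3 libraries, made from total RNA and 101 bp strand-specific paired-end reads. The submitters' processing notes name TopHat, edgeR, hg19 and mm10 without their roles. The counting tool, the annotation and the use of strand are not given in the sources used here, so reads of Axin2 and Lef1 could not be told from those of the antisense genes Gm11670 and Gm43352, which overlap their exons. For the kit, the methods give TruSeq RNA while the labels give SMARTER. Substrates were assigned from the labels. No column of another sample was present (0), and the methods' own comparison, which used FPKM and p-values, was not repeated.

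Lines that share a symbol were summed (23282 lines, 35 symbols given more than once). CPM used TMM factors of edgeR 4.0.16 in R 4.3.3 (1.02 for TCP, 1.04 for GelMA, 0.943 for GelMA-PSS). A count of 3 corresponds to a CPM of 0.0246, 0.0330 and 0.0166. A gene was kept if its CPM reached 1 in any library, and ratios were taken on log2(CPM + 1) with a 2-fold threshold, against both controls where stated. No count model was fitted, as 1 library per substrate leaves no estimate of spread. Intervals are Wilson for CPM and exact for ratios of counts, at 95% (scipy 1.17.1). They cover counting error only, and counting each read of a pair separately, which the sources leave unstated, would make them too narrow. The totals of all 3 tables exceed the minimum number of reads per sample that the methods state. The length and GC content of transcripts were taken from the GENCODE vM21 annotation of GRCm38, matched by symbol for 22197 genes and through older symbols for 644, with none for 397, and for the correction, loess fits (statsmodels 0.14.6, span 0.3) on length and then on GC content were subtracted from each ratio. Promoter sequences are from RefSeq (GRCm38.p6). Python 3.11.15 was used with numpy 2.4.6, pandas 2.3.3 and matplotlib 3.10.9. The 2-fold calls and the correction were tried on simulated counts with counting error only, scaled by totals without TMM factors. Such counts cannot show how the calls fare with a spread between libraries.

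The genes and lists were chosen with earlier results of these data known. Named are the 10 genes, their paralogs and partners, the genes of each pathway list past 2-fold against both controls with the 2 highest and the 2 lowest of each, the most abundant marker and markers at 0, and the 3 genes nearest in pattern to Axin2 and Lrp5. Other genes, such as the neighbours of Apc2, were named after their values were seen. Emr1 was read under its newer symbol Adgre1. Alternatives covered scaling (total counts, upper quartile, and median of ratios from DESeq2 1.42.0), pseudocount, filter, threshold, length correction and TPM. The protein, qPCR and animal data of the study were not analysed here.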

Additional observations from a re-analysis of the deposited data

How the results depend on the processing

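No paired analysis was possible because each substrate has 1 library, and for the same reason no library could be left out. In every setting below in which they were expressed, Apc, Axin2, Gsk3b, Znrf3, Lrp6, Tcf7l2 and Lef1 stayed below both controls (a CPM of 1 in all libraries leaves out Axin2). A change of pseudocount, threshold or filter cannot alter the sign of a ratio, so only scaling and the correction bear on this. Total counts and TPM lowered the ratios of GelMA-PSS for all genes alike. Median-of-ratios and upper-quartile scaling moved none of the 36 ratios of the 9 genes beyond their counting intervals. In the counts of genes past 2-fold that follow, the values with TMM scaling and a pseudocount of 1 were 233 higher and 307 lower against GelMA, 490 and 412 against TCP, 93 and 39 for GelMA against TCP, and 180 and 153 against both controls, and those of the 9 Wnt genes 1 lower against GelMA, 2 against TCP and 1 against both. With total counts only, 120 genes were higher and 506 lower against GelMA, 338 and 576 against TCP, and 97 higher and 261 lower against both controls, with 4 Wnt genes lower against GelMA (Lrp6, Apc, Gsk3b and Znrf3), 4 against TCP and 2 against both (Apc and Znrf3). With a pseudocount of 0.1, 356 were higher and 525 lower against GelMA, 630 lower against TCP, 213 higher and 106 lower for GelMA against TCP, and 294 lower against both, with 3 Wnt genes lower against GelMA and 3 against both (Axin2, Apc and Tcf7l2). With a pseudocount of 5, the counts were 140 and 158 against GelMA, 273 and 196 against TCP, 30 and 15 for GelMA against TCP, and 106 and 77 against both, with 1 Wnt gene lower against TCP. Corrected for length and GC content, they were 87 and 157 against GelMA, 263 higher against TCP, and 57 and 82 against both. The 1 Wnt gene then lower against GelMA, against TCP and against both was Gsk3b, while Apc (from -1.19 to -0.56 against TCP) and Axin2 (from -1.14 to -0.96) lost theirs. The correction was made on ratios with a pseudocount of 1, which understate Axin2 (-1.79 against TCP without one, uncorrected). With TPM and no TMM factors, the median of all genes was -0.37 against GelMA and -0.32 against TCP, in place of 0.03 and 0.04. The counts were then 41 and 1040 against GelMA, 148 and 1051 against TCP, and 30 and 627 against both, with 6, 5 and 5 Wnt genes lower, and Lrp5 changed sign against TCP. At 1.5-fold they were 1448 and 1423 against GelMA, 1738 and 1509 against TCP, 461 and 279 for GelMA against TCP, and 1064 and 946 against both, with 7, 6 and 6 Wnt genes lower in GelMA-PSS and 2, Lrp5 and Lef1, higher on GelMA than on TCP. With a CPM of 1 required in all libraries, 168 genes were higher and 148 lower against both controls, and 1 Wnt gene (Apc) was lower against TCP. Added after the data were seen, the correction with the longest transcripts gave 90 and 140 against GelMA, 260 higher against TCP, and 59 and 71 against both, with 0 Wnt genes lower in each comparison. Ratios with no pseudocount, also added then, gave 272 genes higher and 349 lower against both controls. With them, 3 Wnt genes were lower against GelMA and 3 against both. The share of higher genes among those past 2-fold against both controls was 54.1%, and 27.1% with total counts, 41.0% after the correction, 4.6% with TPM and 43.8% without a pseudocount. The causes of these shifts were not tested. The depth limited Rnf43, and the other unexpressed genes of the lists were left out by the limit on CPM.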
